A study of Mus musculus with 3 samples.

Results

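YAP and TAZ are transcriptional coactivators that have no DNA-binding domain of their own and reach their target genes through the TEAD factors, often at sites shared with AP-1. The Hippo kinases MST and LATS hold them out of the nucleus, and Fat cadherins are among the surface proteins that feed into this pathway. In skin carcinomas YAP and TAZ activity is known for its part in proliferation, cell motility and mesenchymal features, and a set of direct targets is commonly read as its output. Described here are 10 such target genes, Ccn1, Ccn2, Ankrd1, Axl, Fjx1, Nuak2, Arhgef17, Crim1, F3 and Nt5e, through the chromatin accessibility of the regions assigned to them. A region belonged to a gene when that gene's body was the protein-coding gene body nearest to the region's midpoint, at most 50 kb away. This gave 94 of 95840 nuclear regions, between 3 for Fjx1 and 22 for Crim1.

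Accessibility was measured by ATAC-seq, which counts where the transposase Tn5 can insert into DNA, in YFP-marked tumour cells sorted by Epcam, an epithelial surface protein, from DMBA/TPA squamous cell carcinomas of mouse skin. There was 1 library in each of 3 groups: Epcam+ cells of genotype K14Cre;RYFP (control Epcam+), Epcam+ cells of genotype K14Cre;Fat1fl/fl,RYFP (Fat1 cKO Epcam+) and Epcam- cells of that same genotype (Fat1 cKO Epcam-). Cre was driven by the keratin 14 promoter, so deletion and the YFP mark begin in keratin 14 cells of the epidermis, and every group carries Cre, YFP and the carcinogen treatment on a mixed background. Age was not stated, and the titles of both Fat1 cKO libraries share a code that the labels do not explain. With 1 library per group no difference has a replicate check, no test between conditions was possible, and the 95% intervals cover counting error only. In bulk libraries, fewer cells with an open region and a less open region in each cell cannot be told apart.

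Nuclear counts were 4335304, 3812880 and 5485317 in the libraries labelled control Epcam+, Fat1 cKO Epcam+ and Fat1 cKO Epcam-, shortened below to control+, cKO+ and cKO-, and values given without names stand in this order. The first comparison sets cKO+ over control+, the second cKO- over cKO+, and the third cKO- over control+. The markers did not follow the labels in every case. The 5 epithelial markers summed to 222, 725 and 552 CPM (counts scaled to the size of the library), so the library labelled cKO- stood above the one labelled control+, and Epcam itself stood at 67.7, 224 and 132 CPM. The 11 markers of mesenchymal tumour cells or fibroblasts summed to 951, 636 and 396 CPM, with none at 0. The 6 endothelial markers summed to 196, 210 and 199 CPM, of which Pecam1 alone held 98.0, 142 and 99.1. Single ones were less even: Cdh5, Kdr, Tek and Emcn were lower in the library labelled cKO+ than in that labelled control+. Tie1 stood at 7.10, 8.48 and 23.3 CPM. The 6 immune markers, of which 1 had no assigned region, summed to 92.9, 93.2 and 79.5 CPM. The authors' peak calls also went against the count columns, over the whole file as at the target genes. Of 18422 regions with a call in the control+ library alone, 16893 had their highest CPM in the count column labelled cKO-, and of 10758 with a call in the cKO- library alone, 9510 were highest in that labelled control+. Of the 94 target regions 17 had a peak call in the control+ library alone, and all 17 had their highest CPM in the count column labelled cKO- (medians 2.44, 2.19 and 7.09 CPM). Of the 14 with a call in the cKO- library alone, 12 were highest in the count column labelled control+ (medians 6.77, 3.01 and 2.82 CPM). The 3 with a call in the cKO+ library alone were all highest in their own column. Peaks were called in all 3 libraries in 21 of the target regions (22.3%, against 26.9% of all regions) and in none in 14 (14.9%, against 20.8%). Directions below are therefore between column labels.

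A promoter sequence was held by the RefSeq table (GRCm38.p6) for 6 of the 10 genes. The 5 with a match to the TEAD core or the AP-1 motif are shown, because these are the sequences through which YAP, TAZ and AP-1 are known to act. Each runs 5′ to 3′ on the gene's strand over the 250 bases before the start site. Capitals mark the TEAD core GGAATG on either strand (CATTCC on the reverse) or the AP-1 motif TGANTCA, which reads the same on both strands, and no match overlapped another.
Ccn1 (chr3:145649986-145650235, minus strand): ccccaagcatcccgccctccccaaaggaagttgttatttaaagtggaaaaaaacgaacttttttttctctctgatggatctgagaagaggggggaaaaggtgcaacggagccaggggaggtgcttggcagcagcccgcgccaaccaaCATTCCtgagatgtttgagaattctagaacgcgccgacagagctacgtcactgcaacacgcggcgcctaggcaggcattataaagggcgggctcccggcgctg
Ankrd1 (chr19:36119845-36120094, minus strand): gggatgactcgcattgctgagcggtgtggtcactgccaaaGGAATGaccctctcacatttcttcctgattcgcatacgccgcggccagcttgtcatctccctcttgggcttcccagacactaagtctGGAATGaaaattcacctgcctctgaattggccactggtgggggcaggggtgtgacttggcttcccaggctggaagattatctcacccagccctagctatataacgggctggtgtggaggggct
Axl (chr7:25788734-25788983, minus strand): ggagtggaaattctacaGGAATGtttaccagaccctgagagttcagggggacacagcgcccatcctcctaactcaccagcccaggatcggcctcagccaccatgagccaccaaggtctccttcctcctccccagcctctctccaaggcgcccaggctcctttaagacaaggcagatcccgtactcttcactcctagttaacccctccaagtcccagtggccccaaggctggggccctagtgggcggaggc
Crim1 (chr17:78199998-78200247, plus strand): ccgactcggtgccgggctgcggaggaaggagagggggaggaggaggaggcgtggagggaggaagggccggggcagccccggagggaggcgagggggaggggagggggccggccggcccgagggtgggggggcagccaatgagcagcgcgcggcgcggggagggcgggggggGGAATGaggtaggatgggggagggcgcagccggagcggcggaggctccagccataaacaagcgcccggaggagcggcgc
F3 (chr3:121723287-121723536, plus strand): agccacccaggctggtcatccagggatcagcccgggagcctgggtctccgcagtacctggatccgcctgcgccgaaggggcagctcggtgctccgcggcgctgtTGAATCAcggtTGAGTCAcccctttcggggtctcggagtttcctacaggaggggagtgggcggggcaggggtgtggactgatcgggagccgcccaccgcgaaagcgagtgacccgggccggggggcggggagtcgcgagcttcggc

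The TEAD core was found in 4 of the 6 promoters, once in Ccn1 (103 bases before the start), Axl (233 bases) and Crim1 (79 bases), and at 2 places in Ankrd1 (123 and 210 bases). The same letters occur in 11.7% of the 21263 promoter windows of this length. The AP-1 motif was found only in F3 among the 6, at 135 and 146 bases before the start, against 6.13% of all windows. The Nt5e promoter held neither. GC content ranged from 54.8% in Ccn1 to 77.6% in Crim1. These matches are letters in a window, and whether a factor binds them was not measured. In each of the 6 genes 1 region of the file covered the start site.

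Summed over the 10 genes, accessibility was almost the same in the 3 libraries, at 993, 991 and 988 CPM. The genes did not move as a group. Fjx1 and Crim1 were highest in the library labelled cKO-, Axl and Arhgef17 were lowest there, and Ccn1 was even across all 3. As CPM per kb of region, the scale on which genes can be compared, Axl was the densest in the library labelled control+ at 37.6, ahead of Arhgef17 at 19.0 and Ccn1 at 17.5, and Ankrd1 the sparsest at 5.82. Fjx1 was the densest in the library labelled cKO- at 18.6 CPM per kb, where Axl stood at 15.1 and Ankrd1, again the sparsest, at 4.02. The plot of gene sums by library shows each level with its counting interval.

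**Figure D1:**
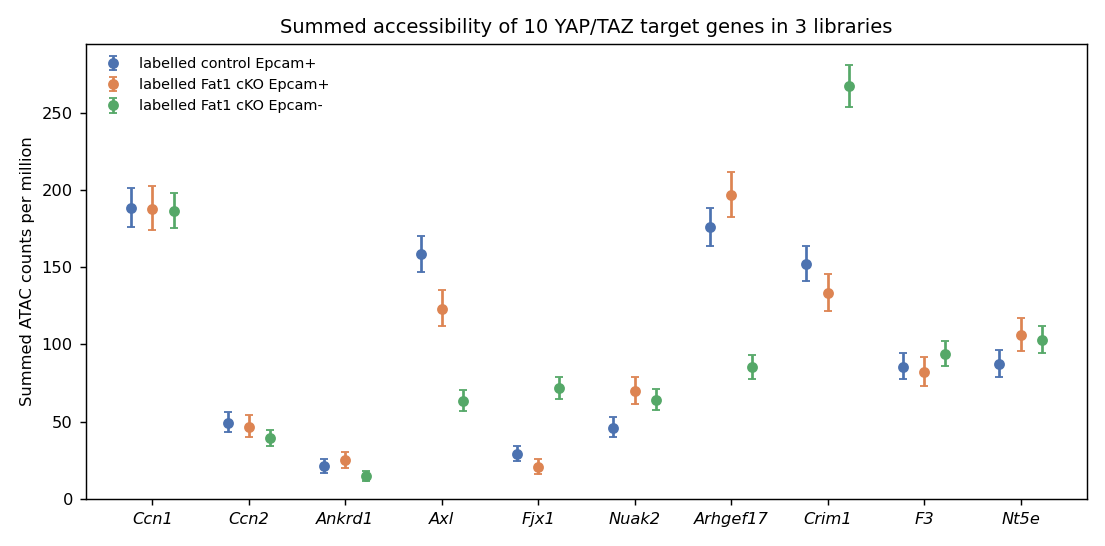
Summed CPM of the regions of each of the 10 genes (y axis) in the 3 libraries (colours), with exact Poisson 95% intervals as bars. Crim1 and Fjx1 stand highest in the library labelled cKO-, at 267 and 71.6 CPM, while Axl and Arhgef17 stand lowest there, at 63.6 and 85.3 CPM.

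The secreted matrix proteins Ccn1 and Ccn2, the most widely used readouts of YAP and TAZ, differed little as gene sums. Ccn1 (chromosome 3 from 145646971 to 145649985) stood at 188, 188 and 186 CPM over 15 regions, from 849, 687 and 1025 counts. Its log2 ratios were -0.00 (95% interval -0.15 to 0.14) for the library labelled cKO+ over that labelled control+, -0.01 (-0.15 to 0.13) for cKO- over cKO+, and -0.01 (-0.15 to 0.12) for cKO- over control+. Neighbours in this order did not differ beyond counting error. Ccn2 (chromosome 10 from 24595442 to 24598683) stood at 49.2, 46.8 and 39.3 CPM over 6 regions, from 222, 171 and 216 counts. Only the first and last of these levels differed beyond counting error, with a log2 ratio of -0.32 (-0.60 to -0.05). A gene end here is either end of the gene body. For Ccn2, Fjx1, Nuak2 and Arhgef17, without a promoter sequence, which end holds the start site was not determined. At the region over the end of Ccn2 with the most counts, chromosome 10 from 24595235 to 24597316, the counts were 116, 81 and 86, which is 25.7, 22.1 and 15.6 CPM. Its log2 ratios were -0.21 (-0.64 to 0.21), -0.49 (-0.96 to -0.05) and -0.70 (-1.14 to -0.30) in the 3 comparisons. The other 5 regions summed stood at 0.06 (-0.36 to 0.48), -0.06 (-0.46 to 0.35) and 0.01 (-0.37 to 0.39).

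The even sum of Ccn1 was made of regions that went opposite ways. At its start site the region from 145649058 to 145650147 held 147, 105 and 177 counts, or 32.6, 28.7 and 32.2 CPM. A region 1910 bp before the start site, from 145651459 to 145652332, held 117, 46 and 43 counts (26.0, 12.6 and 7.82 CPM) and was highest in the library labelled control+. A region 7385 bp from the gene, from 145656949 to 145657791, held 26, 35 and 162 counts (5.77, 9.57 and 29.5 CPM) and was highest in the library labelled cKO-. Between the libraries labelled cKO- and control+ these 2 regions were 3.20-fold lower (log2 ratio -1.68, -2.27 to -1.22) and 4.82-fold higher (2.27, 1.75 to 3.01). The region between them, from 145653067 to 145653741, was the strongest of the gene in the library labelled control+, with 155, 98 and 118 counts (34.4, 26.8 and 21.5 CPM). The strongest in the other 2 libraries lay 35192 bp from the gene and held 125, 164 and 185 counts (27.7, 44.8 and 33.6 CPM). Both stayed under 2-fold in every comparison. A region 42159 bp away, with 68, 12 and 34 counts, was 4.17-fold lower in the library labelled cKO+ than in that labelled control+ (-2.06, -3.22 to -1.30) and 2.34-fold lower in the third comparison. Opposing it in the first comparison were regions at 13857 bp, past the other end of the gene, and at 16471 and 25013 bp. They held 8, 14 and 20 counts in the library labelled control+ against 20, 38 and 44 in that labelled cKO+ (2.67-fold, 3.06-fold and 2.56-fold higher). The last of them was also 2.07-fold higher in the third comparison. The regions at 1910 and 43426 bp were 2.03-fold and 2.22-fold lower in the first comparison, and that at 43426 bp, with 27, 9 and 39 counts, was 2.60-fold higher in the second. Ccn2 held a smaller opposition of this kind. Its region 5890 bp from the gene (25, 41 and 77 counts) was 2.41-fold higher and its region at 11460 bp (32, 26 and 11 counts) 3.09-fold lower in the library labelled cKO- than in that labelled control+. A region of Ccn2 at 14117 bp (21, 5 and 17 counts) was 2.82-fold lower in the first comparison.

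Ankrd1 (chromosome 19 from 36111965 to 36119844) encodes an ankyrin repeat protein of muscle and of the nucleus, and had the lowest sum of the 10 in 2 of the 3 libraries. It stood at 21.1, 24.9 and 14.5 CPM over 5 regions, from 95, 91 and 80 counts. The libraries labelled control+ and cKO+ overlapped within counting error. That labelled cKO- lay below the one labelled control+ with a log2 ratio of -0.52 (-0.98 to -0.09) and below the one labelled cKO+ with -0.76 (-1.23 to -0.33). The latter became -1.14 with the chromosome median set to 0 and -1.30 with other regions within 500 kb set to 0, past 2-fold in both. The region over its start site, which holds the whole promoter window shown above with its 2 TEAD core matches, had 27, 11 and 7 counts (5.99, 3.01 and 1.27 CPM). That is 3.76-fold lower in the library labelled cKO- than in that labelled control+ (-1.91, -3.68 to -0.999), on few counts. A region 9584 bp away held 33, 58 and 39 counts and was highest in the library labelled cKO+, 2.1-fold above control+ and 2.16-fold above cKO-. The region farthest from Ankrd1 was the 1 region among the 94 at 0 in a library, with 11, 0 and 1 counts, and a count of 0 there allows up to 0.820 CPM, the level of 3 counts, while the two-sided exact interval reaches 1.01 CPM.

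Axl, the receptor tyrosine kinase for Gas6, was lower from column to column. Its 5 regions (gene on chromosome 7 from 25756500 to 25788924) summed to 158, 123 and 63.6 CPM, from 714, 450 and 350 counts. The library labelled cKO- was 2.48-fold below that labelled control+ (log2 ratio -1.31, -1.50 to -1.13) and 1.93-fold below that labelled cKO+ (-0.95, -1.16 to -0.75). The libraries labelled cKO+ and control+ differed by -0.36 (-0.54 to -0.19). The strongest region, inside the gene from 25780691 to 25782509, carried 420, 255 and 206 counts (93.2, 69.7 and 37.5 CPM). A second inside the gene, from 25783809 to 25784257, carried 85, 72 and 19 and was 5.17-fold lower in the library labelled cKO- than in that labelled cKO+ (-2.37, -3.32 to -1.77). Another, 4187 bp outside, carried 73, 16 and 13 and was 3.45-fold lower in the library labelled cKO+ than in that labelled control+. The region over the start site differed less, with 117, 94 and 104 counts (26.0, 25.7 and 18.9 CPM), and over it alone the log2 ratio of the third comparison was -0.45. The mesenchymal markers had the same order as a sum (951, 636 and 396 CPM). Single markers did not all follow it: Col1a1 and Lum were highest in the library labelled cKO+, and Col3a1 was lowest there. The part of this order in the Axl values was not tested. Chromosome 7 as a whole was also lower in the library labelled cKO-, with medians over its regions of -0.31 against control+ and -0.49 against cKO+. With the chromosome median set to 0, Axl stood at -0.996, just under 2-fold, and at -0.46. With other regions within 500 kb set to 0 it stood at -1.21 and -0.29.

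Arhgef17 lies on the same chromosome from 100869746 to 100932161 and was also lowest in the library labelled cKO-. Its 13 regions, all inside the gene, summed to 176, 197 and 85.3 CPM, from 792, 720 and 469 counts. The library labelled cKO- was 2.30-fold below that labelled cKO+ (-1.20, -1.38 to -1.04) and 2.05-fold below that labelled control+ (-1.04, -1.21 to -0.88). Between the columns labelled cKO+ and control+ the sum differed by 0.16 (0.02 to 0.31), but by -0.61 as the median of its region ratios. The region over its gene end, from 100930846 to 100933172, and the regions within the gene differed in which of these 2 columns was higher. At the gene end the counts were 352, 476 and 327 (78.1, 130 and 59.5 CPM), highest in the library labelled cKO+. The other 12 regions summed to 97.6, 66.7 and 25.8 CPM, highest in the library labelled control+. Of 9 regions with enough counts in the third comparison, 8 were at least 2-fold lower in the library labelled cKO-, against 19.3% of all regions. These 8 lay farther than 1 kb from a gene end, where 52.9% of regions over all genes passed in either direction. The other of the 9 was the region at the gene end, and none was at least 2-fold higher (28.4% of all regions). The steepest was the region from 100881753 to 100882547, with 37, 44 and 4 counts, 10.7-fold lower in the library labelled cKO- than in that labelled cKO+ (-3.42, -5.99 to -2.59). With the chromosome median set to 0 the gene ratios became -0.71 and -0.73, under 2-fold. Other regions within 500 kb of Arhgef17 had medians of -0.47 and -0.44 in these comparisons.

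Nuak2, a kinase of the AMPK family on chromosome 1 from 132316125 to 132333488, had the largest difference of the 10 genes between the libraries labelled control+ and cKO+. Its 6 regions summed to 46.1, 69.7 and 64.2 CPM, from 208, 255 and 353 counts. The libraries labelled cKO+ and cKO- lay above the one labelled control+, with log2 ratios of 0.59 (0.33 to 0.87) and 0.47 (0.23 to 0.73). They did not differ from each other beyond counting error (-0.12, -0.36 to 0.12). Most of the first difference came from a region 2.97 kb inside the gene, with 47, 107 and 116 counts, 2.73-fold higher in the library labelled cKO+ than in that labelled control+ (1.45, 0.98 to 2.02). At the gene end the counts were 64, 82 and 103. With other regions within 500 kb, whose median was 0.52 in the first comparison, set to 0, the gene stood at 0.08.

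Fjx1 had the largest difference of the 10 genes. It is the mammalian counterpart of four-jointed, a Golgi kinase that in flies acts on Fat and Dachsous cadherins, and lies on chromosome 2 from 102449366 to 102451792. Its 3 regions summed to 29.1, 20.8 and 71.6 CPM, from 131, 76 and 394 counts. The library labelled cKO- was 3.40-fold above that labelled cKO+ (1.76, 1.43 to 2.16) and 2.44-fold above that labelled control+ (1.29, 1.01 to 1.60). All 3 regions took part. The one over the gene, from 102450126 to 102452374, held 105, 56 and 275 counts (23.3, 15.3 and 50.0 CPM). The one 14939 bp away held 24, 16 and 84 counts, and the one 17029 bp away held 2, 4 and 35 counts (log2 ratio in the third comparison 2.95, 1.88 to 6.94). Between the columns labelled cKO+ and control+ the ratio was -0.48 (-0.91 to -0.07), which turned to 0.39 with other regions within 500 kb set to 0. Regions around Fjx1 were higher as well. The 52 other regions within 500 kb that had enough counts in the second comparison had a median log2 ratio of 1.21, and chromosome 2 one of 0.55. With these neighbours set to 0, Fjx1 stood at 0.56 in the second comparison and at 0.97 in the third, both under 2-fold.

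The surface proteins Crim1, F3 and Nt5e also held opposing regions. Crim1, a transmembrane protein that binds BMPs, lies on chromosome 17 from 78200233 to 78376592 and summed to 152, 133 and 267 CPM over 22 regions, from 686, 487 and 1468 counts. The library labelled cKO- was 2.0-fold above that labelled cKO+ (1.0, 0.85 to 1.15) and 1.75-fold above that labelled control+ (0.81, 0.68 to 0.94). Between the columns labelled cKO+ and control+ the ratio was -0.19 (-0.36 to -0.02). The second comparison lies at the 2-fold line, and 5 of 11 alternatives put it at or above. Of 18 Crim1 regions with enough counts in the second comparison, 12 stood above the 2-fold limit in the library labelled cKO-. Their ratios ran from 2.13-fold to 5.43-fold, and 25% of all regions passed this way. Only 1 Crim1 region opposed them, against 17.5% of all regions. All of these Crim1 regions lay farther than 1 kb from a gene end, where 47.4% over all genes passed in either direction. The steepest of the higher Crim1 regions, 36.9 kb inside the gene from its nearer end, held 12, 8 and 76 counts. The opposing region, from 78350098 to 78351062, held 28, 54 and 9 counts (6.21, 14.8 and 1.64 CPM) and was 7.33-fold lower (-2.87, -4.38 to -2.14). In the third comparison 12 of 19 Crim1 regions passed upward, between 2.14-fold and 5.96-fold, against 28.4% of all regions. Another 2 passed downward, against 19.3%. They were that same opposing region at 3.20-fold and the one from 78363295 to 78364040 (85, 63 and 48 counts) at 2.1-fold. Farther than 1 kb from a gene end, where all of these lay, 52.9% of regions over all genes passed in either direction. In the first comparison the opposing region was 2.29-fold higher in the library labelled cKO+, against 2 others that were lower. One of those, from 78246735 to 78247311, held 52, 7 and 60 counts (-2.35, -3.98 to -1.45), and the other, from 78245585 to 78245923, held 25, 9 and 17. Over the Crim1 start site, beside the TEAD core match at 79 bases, the region from 78199402 to 78201855 held 264, 194 and 513 counts (58.6, 53.0 and 93.3 CPM). Other regions within 500 kb of Crim1 had medians of 0.79 and 0.53 in the second and the third comparison, and with them set to 0 the gene stood at 0.21 and 0.28.

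F3 encodes tissue factor, the cell surface starter of blood clotting, on chromosome 3 from 121723537 to 121735052. Its sum was even, at 85.6, 82.3 and 93.6 CPM over 8 regions, from 386, 301 and 515 counts, and no library differed from its neighbour in order beyond counting error. The start region, with both AP-1 matches shown above, was even as well, at 247, 223 and 301 counts (54.8, 61.0 and 54.7 CPM). Away from it the regions parted. A region 9957 bp from the gene, from 121713219 to 121713941, held 14, 4 and 83 counts (3.11, 1.09 and 15.1 CPM) and was 10.1-fold higher in the library labelled cKO- than in that labelled cKO+ (3.34, 2.38 to 5.70). Also higher there were regions at 19717 bp (25, 5 and 32 counts), 1518 bp (34, 7 and 38) and 3935 bp (4, 5 and 25), by 3.46-fold, 3.12-fold and 2.76-fold. Opposing them, the regions at 17087 bp (18, 22 and 6 counts) and 11904 bp (26, 23 and 11) were 4.22-fold and 2.76-fold lower. In the first comparison the regions at 19717 and 1518 bp were 3.31-fold and 3.39-fold lower. In the third comparison the regions at 9957 and 3935 bp were 4.38-fold and 3.76-fold higher and that at 11904 bp 2.54-fold lower. As the median of its region ratios, F3 stood at 1.46 in the second comparison, against 0.19 (-0.02 to 0.40) as a sum.

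Nt5e, the ectonucleotidase CD73 that makes adenosine outside the cell, lies on chromosome 9 from 88327609 to 88372089. It summed to 87.2, 106 and 103 CPM over 11 regions, from 393, 388 and 566 counts, and the library labelled control+ lay below both others, by log2 ratios of 0.28 (0.08 to 0.49) and 0.24 (0.05 to 0.43). At the start site the counts were 170, 123 and 265 (37.7, 33.6 and 48.2 CPM), so that over regions within 1 kb of a gene end the first of these ratios turned to -0.16. In the second comparison 3 regions were lower in the library labelled cKO-. They were the region 1261 bp outside the gene, from 88372960 to 88373741 (39, 59 and 21 counts, 3.89-fold), the region 37649 bp outside (44, 62 and 35 counts, 2.56-fold) and that from 88340863 to 88341501 (17, 33 and 23 counts, 2.05-fold), which was also 2.25-fold higher in the first comparison. The opposing region, from 88356826 to 88357944 (29, 15 and 53 counts), was 2.22-fold higher. In the third comparison the regions 1471 bp outside (16, 25 and 63 counts) and from 88332614 to 88332896 (13, 20 and 40 counts) were 2.98-fold and 2.32-fold higher, and the region 1261 bp outside 2.14-fold lower.

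**Figure D2:**
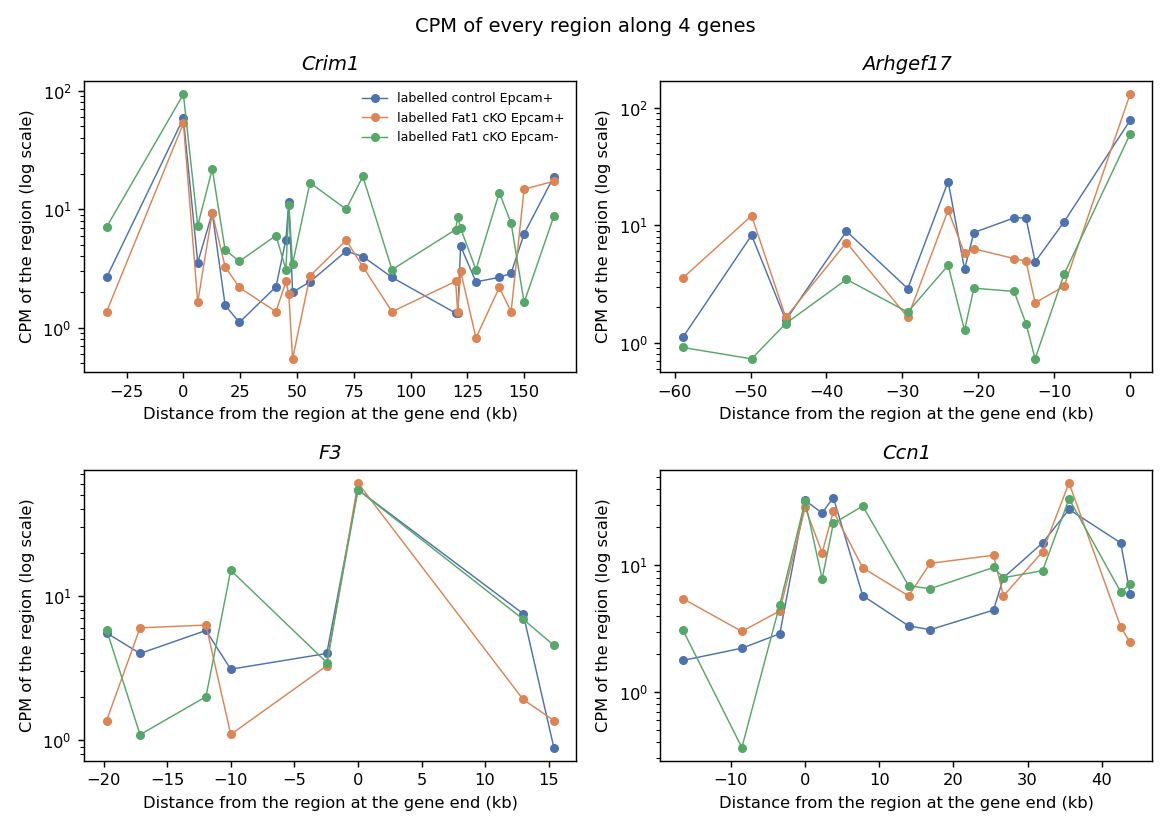
CPM of every region (y axis, log scale) of Crim1, Arhgef17, F3 and Ccn1 against its distance along the chromosome from the region with the most CPM within 1 kb of a gene end (x axis, kb), with 1 line per library. Along Crim1 the library labelled cKO- is highest at most regions. The exceptions lie at 45.1 and 46.4 kb and near the far end, where this library drops to 1.64 CPM. Along Arhgef17 it is lowest at most regions.

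Set beside all genes, the 10 targets did not share a direction. Counted as genes at least 2-fold apart with 20 counts in 1 of the 2 libraries, the first comparison, cKO+ over control+ columns, had 0 of 10 higher (7.19% of all genes) and 0 lower (4.27%), with a median log2 ratio of -0.03 against 0.05 over 15239 genes. The second, cKO- over cKO+, had 2 higher (9.49%), Fjx1 and Crim1, and 1 lower (6.28%), Arhgef17, with a median of -0.08 against 0.00. The third, cKO- over control+, had 1 higher (12.4%), Fjx1, and 2 lower (6.11%), Axl and Arhgef17, with a median of 0.06 against 0.07. The 3 comparisons share libraries and are not independent. The histogram of gene ratios places the 10 genes near the middle of all genes in the first comparison and spread over both sides in the others.

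**Figure D3:**
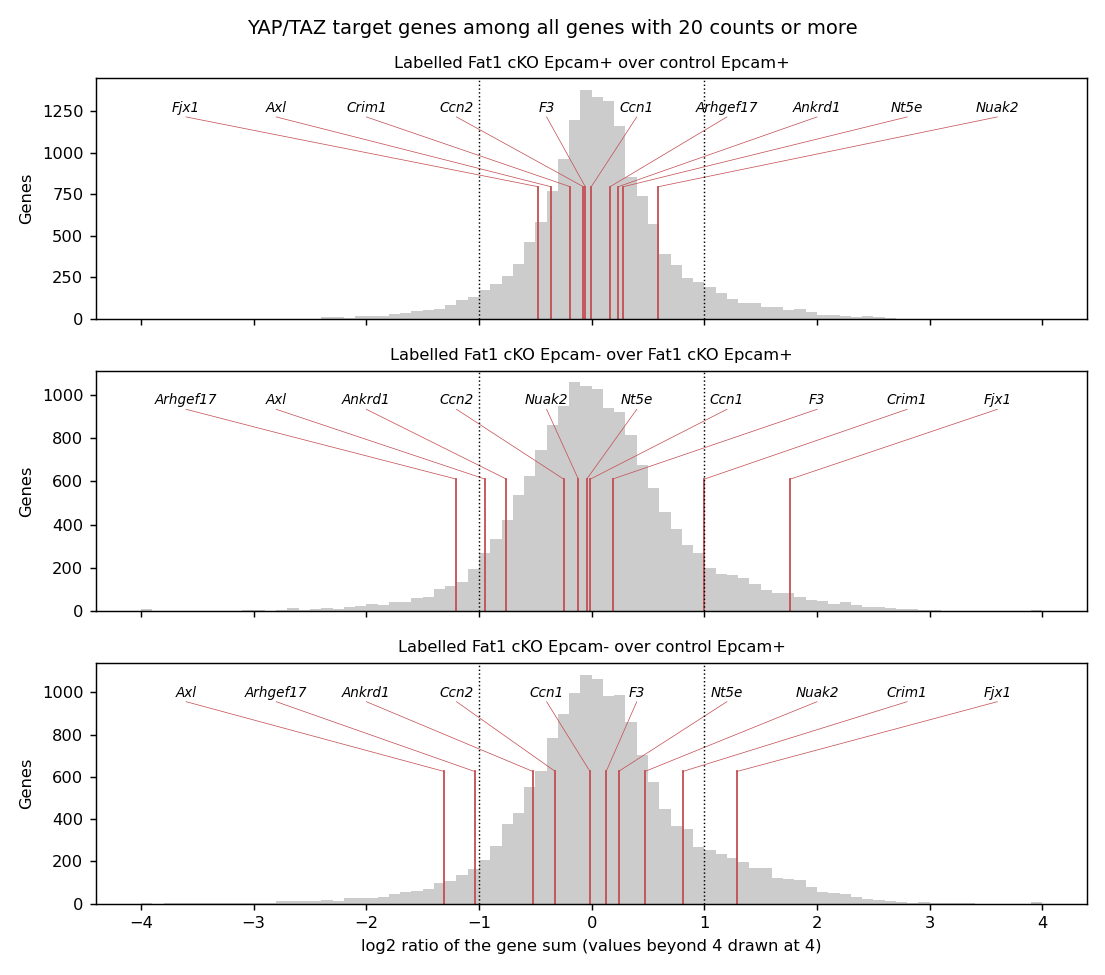
Number of genes (y axis) by log2 ratio of the gene sum (x axis) for the 3 comparisons, with the 10 target genes as red lines and the 2-fold limits dotted. In the top panel all 10 lie inside the limits, and in the middle panel Fjx1 and Crim1 lie at or beyond the upper limit and Arhgef17 beyond the lower one.

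Among the targets, as among all genes, single regions were 2-fold apart more often than gene sums. In the first comparison 7 of 61 regions with enough counts were at least 2-fold higher (18.8% of all regions were) and 13 lower (16.3%). The second had 22 of 71 higher (25%) and 14 lower (17.5%), and the third 22 of 74 higher (28.4%) and 19 lower (19.3%). Regions within 1 kb of a gene end passed the rule in 0 of 10, 2 of 10 and 2 of 11 cases, where 12.1%, 15.2% and 18.4% of such regions over all genes did. Those that passed were at Fjx1 and Arhgef17 in the second comparison and at Fjx1 and Ankrd1 in the third. Farther from gene ends 20 of 51, 34 of 61 and 39 of 63 passed, against 40%, 47.4% and 52.9% over all genes. Regions at least 2-fold apart in opposite directions were held by 2, 3 and 5 of the 10 genes, against 15.6%, 20.5% and 24.1% of all genes with 2 or more measured regions. Among genes with 3 to 22 measured regions these shares were 22.6%, 28.6% and 32.7%. The targets held 3 to 22 regions before the count minimum, and 2 to 13, 2 to 18 and 3 to 19 after it. The targets with opposing regions were Ccn1 and Crim1 in the first comparison, Crim1, F3 and Nt5e in the second, and Ccn1, Ccn2, Crim1, F3 and Nt5e in the third. Of the 78 regions with 20 counts in any library, 34 (43.6%) had their highest CPM in the library labelled cKO-, close to the 41.7% over all regions, but this was 15 of 19 at Crim1, 3 of 3 at Fjx1, 0 of 10 at Arhgef17 and 0 of 4 at Axl.

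**Figure D4:**
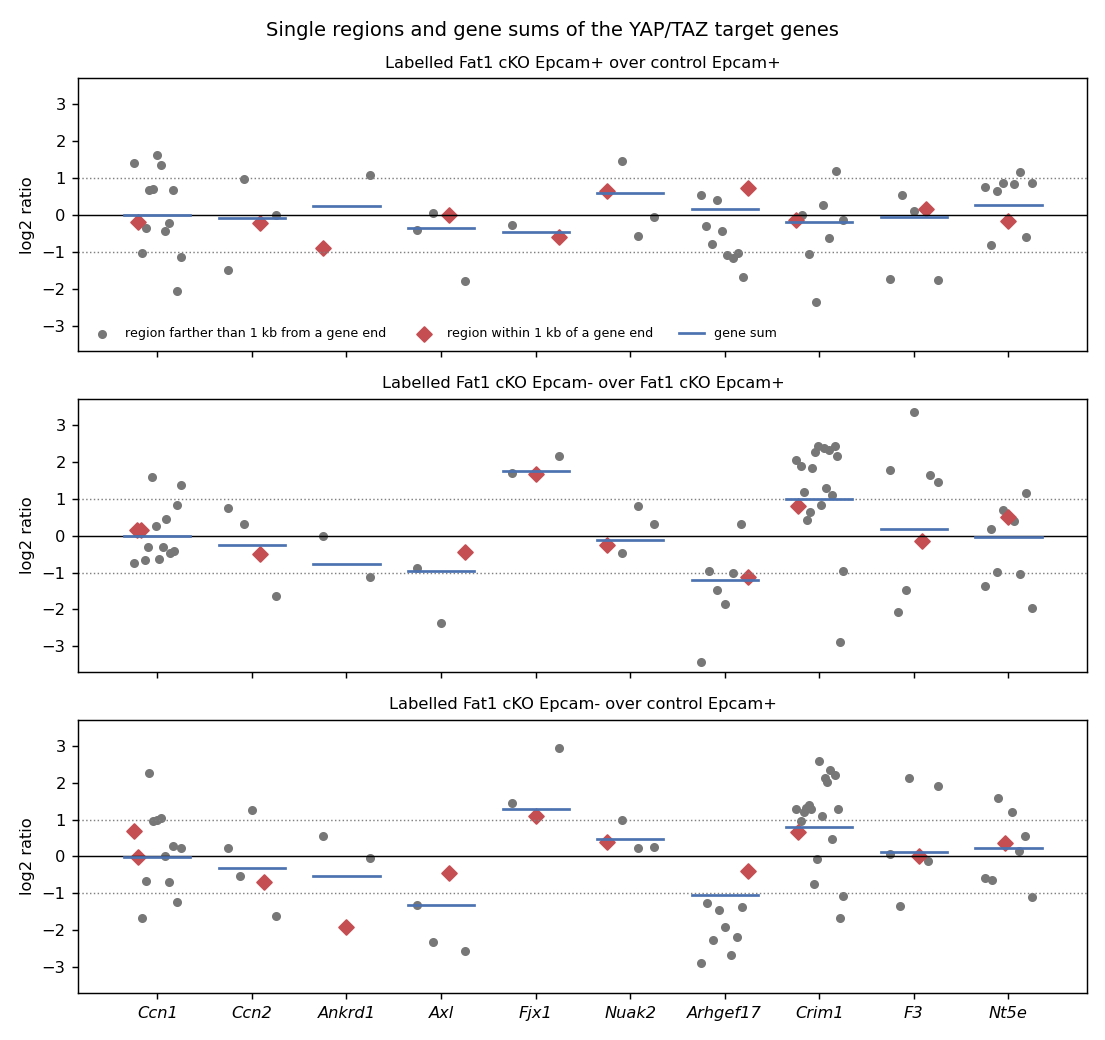
Log2 ratio (y axis) of every region with 20 counts or more in 1 of the 2 libraries, by gene (x axis), for the 3 comparisons. Diamonds are regions within 1 kb of a gene end, circles are all others, blue bars are gene sums and dotted lines the 2-fold limits. Circles spread past both limits in genes whose bar lies near 0, as in F3 in the middle panel, where they run from -2.08 to 3.34.

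Other genes of the pathway were summed in the same way. Of all genes, 7.19%, 9.49% and 12.4% were at least 2-fold higher in the 3 comparisons, and 4.27%, 6.28% and 6.11% lower. Among 12 further targets of YAP and TAZ (Myof, Amotl2, Lats2, Asap1, Igfbp3, Foxf2, Gadd45a, Ccdc80, Dock5, Ptpn14, Tgfb2 and Rbms3) none was 2-fold apart in the first and second comparisons. In the third, Foxf2, a forkhead factor gene, was the 1 that was higher (12.9, 23.8 and 34.5 CPM, log2 ratio 1.39), and none was lower. Their medians were 0.07, -0.18 and -0.12, against 0.05, 0.00 and 0.07 over all genes. Among 25 genes of the Hippo pathway and its TEAD partners, 3 of which are also in the list before, 1 was higher in the first comparison, the TEAD gene Tead3 (59.9, 129 and 82.0 CPM, 1.10). In the second, Vgll3, a TEAD cofactor gene, was higher (35.3, 29.3 and 92.0 CPM, 1.64) and Tead1 lower (366, 460 and 224 CPM, -1.03). Vgll3 was also higher in the third comparison (1.37), and the medians of these 25 genes were 0.12, -0.18 and -0.12. Tead1 lies on chromosome 7, and with the chromosome median set to 0 it stood at -0.55, under 2-fold. The same setting put Stk4 at -1.05 in the second comparison and Igfbp3 at -1.01 in the first, both past 2-fold lower. Under it Tead3, Vgll3 and Foxf2 stayed past 2-fold. Yap1 itself stood at 138, 116 and 180 CPM and Wwtr1, the TAZ gene, at 235, 210 and 258 CPM.

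Genes with a pattern like that of the 3 most variable targets were sought by the distance between centred log2 CPM values over the 3 libraries. Nearest to Fjx1 were Actr3b and Dlx5 (distances of 0.00772 and 0.0123 log2 units), nearest to Axl were LTO1 and St6galnac4 (0.0258 and 0.0301), and nearest to Arhgef17 were Gm4606 and Egflam (0.0248 and 0.0260). With only 3 libraries many genes match by this measure: 91, 153 and 222 of 10160 genes lay within 0.25 of Fjx1, Axl and Arhgef17. If the names of the count columns labelled control+ and cKO- were exchanged, the first comparison would set Epcam+ over Epcam- cells, both Fat1 cKO, the second control over Fat1 cKO cells, both Epcam+, and the third control Epcam+ cells over Epcam- cells of the Fat1 cKO. Fjx1 and Crim1 would then be highest, and Axl and Arhgef17 lowest, in control Epcam+ cells. The epithelial markers would sum to 552, 725 and 222 CPM in control Epcam+, Fat1 cKO Epcam+ and Fat1 cKO Epcam- cells, and the mesenchymal ones to 396, 636 and 951. Of the 18422 and 10758 regions called in control+ or cKO- alone, 16893 and 9510 would be highest in their own column. Whether the names were exchanged was not tested. Accessibility is not a measure of transcript level, and expression of these genes was not analysed here.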

How the data were processed

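The authors deposited 1 table of raw counts, holding for each of 3 libraries its counts, and peak calls given as yes or no (other values), over 95842 regions. The submitters' processing notes name mm10 (GRCm38) as build and, in no order, MACS2 2.1.0.20151222, Bowtie2 2.2.6, Picard and SAMtools. The unit counted (read or fragment), filters, any Tn5 shift and the peak threshold were not stated. Columns were matched to libraries by names that equal the sample titles. Coordinates are as in the file.

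The 2 mitochondrial regions were left out. Counts were scaled by TMM (edgeR 4.0.16, R 4.3.3), which describes library size only, since no test was run. DESeq2 1.42.0 gave alternative size factors. CPM, log2 ratios with a prior count of 2, Clopper-Pearson intervals of ratios and exact Poisson intervals were computed in Python 3.11.15. The log2 ratios, their intervals and the 2-fold limit were checked on simulated data. That check used higher counts and larger changes than the calling rule asks for. It did not cover regions near the count minimum or the Poisson intervals. PCR copies were not marked by molecular identifiers, so intervals may be too narrow. A gene or region was called at 2-fold with 20 counts in 1 of the 2 libraries. Genes came from RefSeq (GRCm38.p6). Motifs were searched in RefSeq promoter windows.

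All 10 genes are described. Within a gene the named regions include the strongest, the one at a gene end and opposing ones. The rule also asked for the extremes of each comparison, not all of which are named. Members and lists were chosen with earlier results of these data known.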

Additional observations from a re-analysis of the deposited data

How the results depend on the processing

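No called gene or region changed sign under any alternative run. Among alternative values of single gene ratios 246 stayed within the counting interval of the reported value and 80 did not. For single regions 384 did and 4 did not. Total-count scaling lowers the first comparison by 0.12 on the log2 scale and the third by 0.05, and raises the second by 0.06. In the first comparison 1 gene was higher at 1.5-fold instead of 2-fold, and 18 regions were higher at 1.5-fold. Regions with 50 counts or more left 3 higher and 6 lower. In the second comparison the median moved to -0.32 with the chromosome median set to 0 and to -0.30 with other regions within 500 kb set to 0. The genes called higher fell to 1 with DESeq2 size factors, the chromosome median set to 0, regions within 10 kb, regions within 1 kb of a gene end or regions inside the gene body, and to 0 with the neighbours set to 0. The 1 gene called lower became Ankrd1 in place of Arhgef17 with the chromosome median or the neighbours set to 0. The genes called lower rose to 2 without the strongest region of each gene and to 3 at 1.5-fold. Regions with 50 counts or more left 10 higher and 6 lower. In the third comparison the median moved to -0.21 with the chromosome median set to 0 and to -0.31 with the neighbours set to 0. The genes called higher fell to 0 under both of these, and rose to 2 as a median of region ratios and at 1.5-fold. The genes called lower fell to 0 with the chromosome median set to 0 and to 1, Axl, with the neighbours set to 0. Over regions within 1 kb of a gene end the 1 gene called lower was Ankrd1 (-1.91). There Axl stood at -0.45 and Arhgef17 at -0.39, both under 2-fold. Regions with 50 counts or more left 12 higher and 9 lower. Where a count moved the cause was not tested, apart from the fewer regions that a higher minimum leaves. Setting the neighbours to 0 and leaving out the strongest region were chosen after seeing the data. No paired analysis was possible because each group has 1 library, so no replicate could be left out either.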
